A study of Mus musculus with 13 samples.

Results

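The genes described here are 42 mouse homeobox genes of the LIM, Nkx, Dlx, Engrailed, Msx, Emx, Vax, Barx, Tlx, Hlx, Gbx, Evx and Mnx families, none of them a Hox gene. They were chosen by name, as non-Hox homeobox genes of the LIM and Antennapedia/NKL classes, by a rule that uses no measured value. Of the 42, 41 had a row in the deposited count tables, out of 25183 genes in either table. 38 were in both tables, Nkx2-5, Nkx3-2 and Gbx1 were in the table of sequencing run 385 only, and Tlx3 was not analysed here.

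The study profiled polyadenylated RNA of mouse small intestine in 13 libraries and 5 groups. Crypts, the gland-like pits where intestinal stem cells sit, gave 9 libraries. They were taken from 12-week-old mice given beta-naphthoflavone for 6 weeks, on a mixed C57BL/6-FVB background, as wild type (WT, n = 3), Eed-/- (Eed KO, n = 3) and Ezh2-/- (Ezh2 KO, n = 3). 4 libraries came from small intestinal organoids given the same compound for 10 days, as WT on an FVB background (n = 2) and Eed-/- on a C57BL/6-FVB background (n = 2), so strain and genotype cannot be told apart in the organoids. For organoids and run 440 crypts, WT included, the labels name AhCre, a recombinase under an aryl hydrocarbon-responsive promoter that acts mainly in epithelium and is switched on by beta-naphthoflavone, and for the knockouts floxed alleles. All groups, WT included, therefore received the inducer. Libraries are named by group, run (385 or 440) and title number. The labels tie no library to an animal or a culture, and p-values therefore cover only the scatter among these libraries, part of which may be technical.

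Homeobox genes encode transcription factors that bind DNA through a homeodomain and set the identity of tissues in the embryo. LIM homeodomain factors also carry a pair of LIM domains that recruit LDB cofactors, and many NKL factors recruit Groucho (Tle) corepressors. Many of these genes are silent outside their own territory, where their CpG-rich promoters carry the histone mark H3K27me3. Eed and Ezh2 are core subunits of Polycomb repressive complex 2 (PRC2), which writes that mark. Ezh2 is one of a pair of catalytic subunits, with Ezh1 as the other, whereas Eed is needed by complexes of either kind.

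The promoter sequences of 5 members are shown because these genes stand for the kinds of behaviour found below. En1 and Barx1 were near 0 in WT and high in Eed KO crypts, Lhx8 did the same from a promoter with few CpG sites, and Mnx1 and Lmx1a were expressed in WT crypts and lower in Eed KO crypts. Sequences are from RefSeq windows of GRCm38.p6, 5′ to 3′ on the gene's strand, with CG dinucleotides in capitals. Each was cut to the longest stretch without an annotated exon in the 250 bases before the RefSeq start. The stretch of Lmx1a lies within the gene's span in the count tables, and that of Mnx1 overlaps the edge of its gene's span.
En1 (chr1:120602237-120602417, plus strand): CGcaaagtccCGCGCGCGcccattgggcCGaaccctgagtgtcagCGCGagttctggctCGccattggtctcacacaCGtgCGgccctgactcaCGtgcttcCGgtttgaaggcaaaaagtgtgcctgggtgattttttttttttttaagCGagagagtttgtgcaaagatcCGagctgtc
Barx1 (chr13:48662786-48662997, plus strand): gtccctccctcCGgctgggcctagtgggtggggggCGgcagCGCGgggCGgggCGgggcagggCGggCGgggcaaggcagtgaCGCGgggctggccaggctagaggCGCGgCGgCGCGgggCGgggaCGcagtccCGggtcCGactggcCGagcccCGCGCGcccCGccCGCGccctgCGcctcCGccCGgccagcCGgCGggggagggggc
Lhx8 (chr3:154330660-154330810, minus strand): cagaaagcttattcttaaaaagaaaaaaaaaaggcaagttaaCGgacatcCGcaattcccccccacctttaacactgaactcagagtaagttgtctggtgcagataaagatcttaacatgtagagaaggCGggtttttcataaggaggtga
Mnx1 (chr5:29478471-29478720, minus strand): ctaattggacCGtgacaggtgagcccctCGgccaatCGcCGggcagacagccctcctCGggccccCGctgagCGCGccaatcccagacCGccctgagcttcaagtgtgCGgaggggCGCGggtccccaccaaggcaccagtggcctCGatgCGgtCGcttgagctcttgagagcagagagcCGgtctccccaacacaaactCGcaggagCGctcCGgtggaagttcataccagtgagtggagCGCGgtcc
Lmx1a (chr1:167689308-167689556, plus strand): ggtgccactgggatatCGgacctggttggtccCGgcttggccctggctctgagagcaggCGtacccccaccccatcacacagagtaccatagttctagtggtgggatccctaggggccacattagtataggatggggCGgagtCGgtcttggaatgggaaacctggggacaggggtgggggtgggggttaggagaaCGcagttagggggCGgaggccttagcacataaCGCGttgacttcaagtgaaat
The shown stretch holds 15 CG in En1 (181 bases), 31 CG in Barx1 (212 bases), 3 CG in Lhx8 (151 bases), 21 CG in Mnx1 (250 bases) and 9 CG in Lmx1a (249 bases). Over the full windows of 300 bases (250 before and 50 after the start), the ratio of observed to expected CpG was 0.948 for En1, 0.940 for Barx1, 0.788 for Mnx1, 0.464 for Lmx1a and 0.241 for Lhx8. A window was found for 32 of the 42 members. Their median ratio was 0.788, against 0.388 for all 27025 genes with a window and 0.749 for the 10423 of these tested in crypts. The 15 members called higher in Eed KO crypts had a median of 0.789 (range 0.241 to 0.998), and the 14 not called or not tested had 0.814 (0.466 to 1.18). The ranges of these sets overlapped. The homeodomain core TAATTA, searched on both strands (it reads the same on each), was in the windows of Emx2 and Msx2. These are 2 of 15 members called higher and 2 of all 32 members with a window (6.25%). It was in 5.31% of the 27025 genes with a window and in 2.33% of all genes called higher. The first window listed for each gene was used.

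Depth ran from 11421666 to 18300644 counts per library. Levels below are CPM, counts scaled to library size (the usual CPM) with TMM factors, with no correction for the run, and a value with ± is a group's mean and SD. Log2 fold changes (± SE) and adjusted p-values are from edgeR's quasi-likelihood test with the run as a term in crypts, adjusted over all genes tested, and "higher" or "lower" calls are those with an adjusted p under 0.05. A group at 0 counts was given a floor of 3 counts summed over its libraries, which makes a fold a lower bound, and a group with 1 to 3 counts gets a ratio and an exact 95% interval from the counts. Floors and intervals cover counting error only. Eed itself was at 15.9 to 25.0 CPM in Eed KO crypts against 50.01 to 60.2 in WT crypts, and at 19.2 to 30.4 CPM in Eed KO organoids against 62.3 to 73.3 in WT organoids. Ezh2 was at 17.7 to 21.8 CPM in Ezh2 KO crypts against 72.1 to 95.1 in WT crypts. Epithelial markers were high in every library, with a summed level of 7168 to 11938 CPM over 10 genes. The Y-linked gene Ddx3y was at 35.5 to 57.4 CPM in WT crypts 385_1 and 385_2 and in both Eed KO organoids, and at 0 to 0.0844 CPM in the other libraries, so sex differed between groups within run 385 and among the organoids, and it was not a term in the fits. Mitochondrial genes took 3.71% to 18.0% of counts.

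WT crypts expressed few of these genes. 20 of the 38 members in both tables had 0 counts in all 3 WT crypts, and 7 reached 10 counts summed over the group. Barx2 (18.9 ± 9.66 CPM), Mnx1 (10.6 ± 1.59 CPM), Lmx1a (5.60 ± 1.23 CPM), Lhx1 (1.36 ± 0.381 CPM) and Nkx2-3 (1.10 ± 1.29 CPM) were the members with a mean of at least 1 CPM. In Eed KO crypts none of the 38 was at 0 in all 3 libraries, 32 reached 10 summed counts and 25 a mean of 1 CPM. The summed level of the 38 was 31.0 to 54.6 CPM in WT crypts and 181 to 236 CPM in Eed KO crypts.

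**Figure D1:**
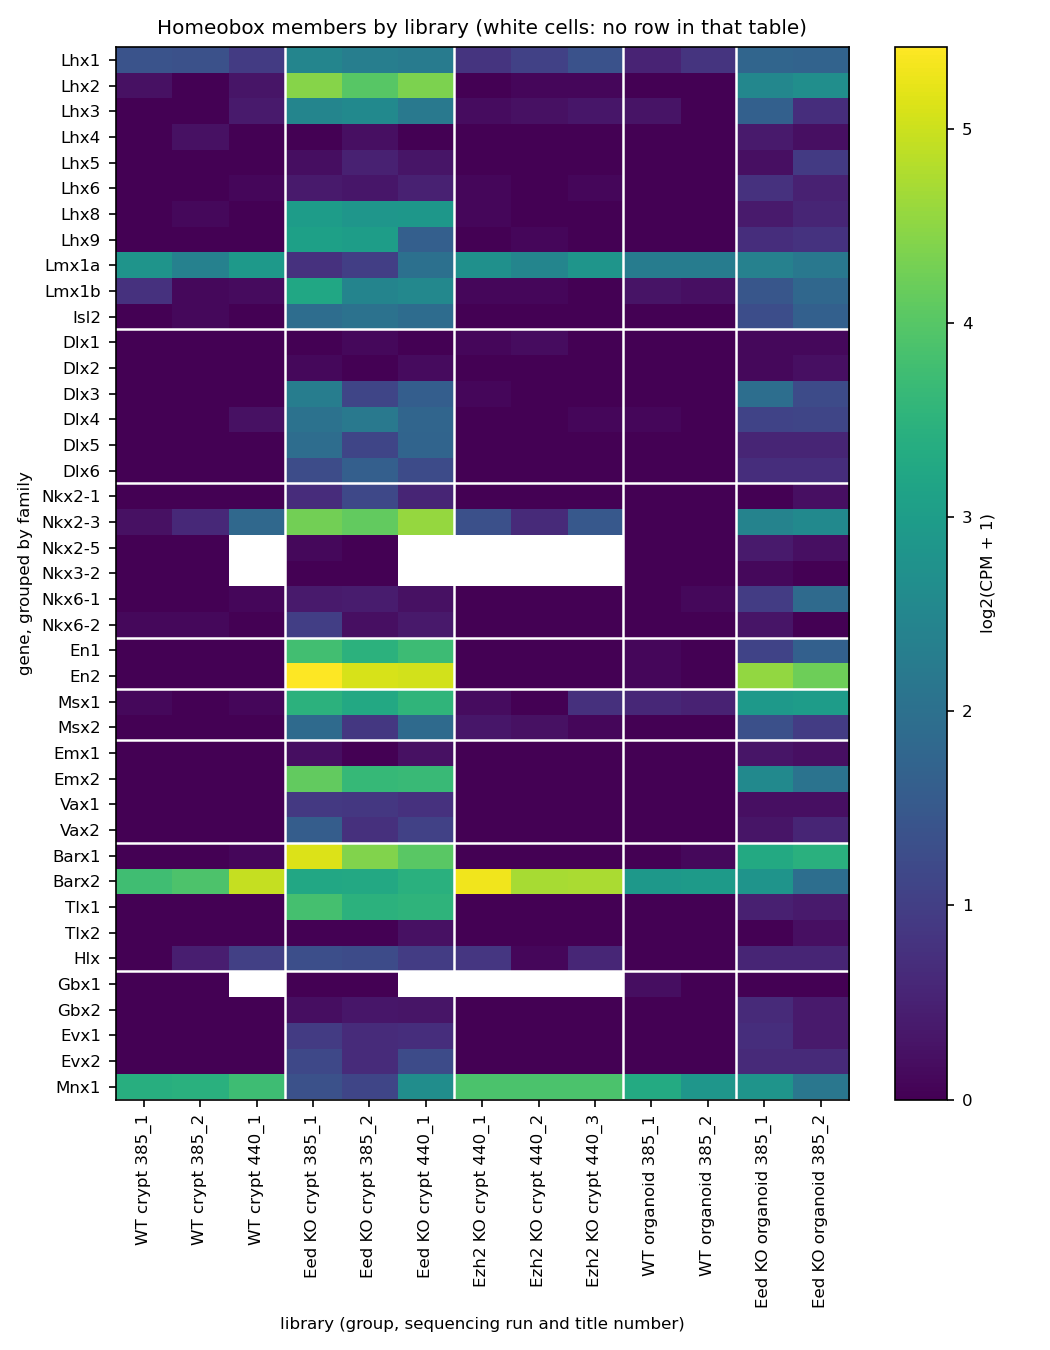
Level of each of the 41 members with a row (rows, grouped by family) in each of the 13 libraries (columns), as log2(CPM + 1). White cells are genes with no row in the table of that run. Most rows are near 0 in WT and Ezh2 KO columns and above 0 in Eed KO columns, while Lmx1a, Barx2 and Mnx1 are expressed in WT.

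25 members passed the low-count filter in crypts. In Eed KO against WT crypts 21 were called higher, 3 lower and 1, Hlx, neither. Over all 14406 genes tested, 13.4% were called higher and 10.6% lower. The median log2 fold change of the 25 was 7.14, or 4.93 with the 11 members at 0 in WT put at their bound, against -0.04 over all genes. Most of the 25 had almost no counts in WT, so they passed the filter through the group in which they were high, and the counts say nothing of the members that did not pass.

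Among LIM homeobox factors, 7 of 11 members rose in Eed KO crypts (Lhx1, Lhx2, Lhx3, Lhx8, Lhx9, Lmx1b and Isl2), 1 fell (Lmx1a) and 3 were not tested. Lhx2 (chr2:38339281-38369733, GRCm38), which acts in forebrain, eye and hair follicle, was at 20.6, 15.2 and 19.4 CPM in Eed KO crypts 385_1, 385_2 and 440_1 and at 0.178, 0 and 0.245 CPM in the WT crypts of the same numbers. Its log2 fold change was 6.88 ± 0.56 (adjusted p = 0.000172). Every Eed KO library lay far above every WT library. Lhx8, known from cholinergic neurons and oocytes, was at 6.93, 6.16 and 6.34 CPM in Eed KO crypts and had 1 count in all WT crypts, a ratio of 249 (interval 44.4 to 9879, adjusted p = 0.00035). Its Eed KO libraries were close to each other (SD 0.405 CPM), unlike those of Lhx9.

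Lhx9, a factor of the early gonad, was at 7.40 and 7.09 CPM in Eed KO crypts of run 385 but at 2.11 CPM in Eed KO crypt 440_1, and at 0 in all WT crypts, hence at least 66.1-fold higher (adjusted p = 0.000733). Lmx1b, needed for the dorsal limb and kidney podocytes, was at 8.33, 4.47 and 4.81 CPM against 0.710, 0.0915 and 0.122 CPM in WT crypts, a log2 fold change of 4.31 ± 0.65 (adjusted p = 0.00204). Lhx3, a factor of the pituitary and of motor neurons, was at 4.52, 4.98 and 3.58 CPM against 0, 0 and 0.306 CPM (5.15 ± 0.77, adjusted p = 0.00188). The motor neuron factor Isl2 had 1 WT count and 2.89 ± 0.198 CPM in Eed KO crypts (ratio 111, interval 19.5 to 4411, adjusted p = 0.0018). None of these groups overlapped.

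Lhx1, which acts in head and kidney formation, was the LIM member with WT expression that rose. It was at 1.60, 1.55 and 0.918 CPM in WT crypts and at 4.52, 3.97 and 3.75 CPM in Eed KO crypts, a log2 fold change of 1.63 ± 0.36 (adjusted p = 0.0116). The groups did not overlap, but with libraries of the same number paired as blocks its adjusted p was 0.0639, and within run 440 alone 0.101. Lhx4, Lhx5 and Lhx6 were not tested. Lhx5 had 11 counts in Eed KO crypts and 0 in WT, Lhx6 had 14 and 1, and Lhx4 had 2 in each.

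The Engrailed pair, which pattern the midbrain, hindbrain and cerebellum, both rose. En2 (chr5:28165696-28173612, GRCm38) had the highest mean CPM of all members in Eed KO crypts, with 41.8, 33.0 and 32.0 CPM (1473 counts in all) against 0 counts in every WT crypt, at least 453-fold higher (adjusted p = 0.000368). En1 was at 12.7, 10.2 and 12.2 CPM, again with 0 WT counts, at least 151-fold higher (adjusted p = 0.00102). No WT or Ezh2 KO crypt had a single count of either gene.

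Of the Nkx factors, 1 of 6 was tested in crypts, and it rose. Nkx2-3 (chr19:43612325-43615891), which in normal gut marks the mesenchyme and is needed for spleen and gut lymphoid tissue, was at 18.1, 16.3 and 22.5 CPM in Eed KO crypts and at 0.178, 0.549 and 2.57 CPM in WT crypts (4.43 ± 0.62, adjusted p = 0.00146). The lowest Eed KO library was above the highest WT library, WT crypt 440_1. Nkx2-1, the lung and thyroid factor, was below the filter with 31 Eed KO counts (0.623, 1.27 and 0.469 CPM) and 0 WT counts, at least 9.54-fold higher. Nkx6-2 had 20 Eed KO counts and 2 WT counts, and Nkx6-1 had 11 and 1. Nkx2-5, the cardiac factor, and Nkx3-2 had no row in the run 440 table, and in run 385 they had 1 and 0 counts in Eed KO crypts and 0 in WT.

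Barx1 and Tlx1 rose while Barx2 fell. Barx1 (chr13:48662998-48666507), a factor of stomach mesenchyme, was at 34.2, 20.2 and 15.4 CPM in Eed KO crypts and had 1 WT count in all, a ratio of 868 (interval 155 to 34306, adjusted p = 0.000281). Per kilobase of exon it had the highest mean level of all members in Eed KO crypts, 16.6 CPM per kb, followed by En2 at 10.1 and Nkx2-3 at 8.98 CPM per kb. Its SD of 9.78 CPM over Eed KO crypts was the largest of any member, yet each library was far above WT. Tlx1, needed for the spleen, was at 13.2, 10.1 and 10.6 CPM with 0 WT counts, at least 144-fold higher (adjusted p = 0.00111). Hlx, a factor of gut and liver mesenchyme, was at 1.48, 1.35 and 0.939 CPM against 0, 0.366 and 1.04 CPM in WT, and the groups overlapped (1.53 ± 0.95, adjusted p = 0.291). Tlx2 had 3 counts in Eed KO crypts and 0 in WT.

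Since Nkx2-3, Barx1 and Hlx are known from gut mesenchyme, the mesenchyme markers are given beside them. None of the 15 mesenchyme markers tested was called in Eed KO against WT crypts. Their summed level over 16 genes was 63.9 to 772 CPM in WT crypts, highest in WT crypt 440_1, and 149 to 335 CPM in Eed KO crypts. Nkx2-3 had the same order as this sum in WT crypts (63.9, 190 and 772 CPM in 385_1, 385_2 and 440_1) and in Ezh2 KO crypts (413, 153 and 415 CPM in 440_1, 440_2 and 440_3), and not in Eed KO crypts (195, 335 and 149 CPM). Of 13 immune markers, 3 were called higher (Laptm5, Itgax and Tyrobp) and 1 lower (Itgam), against 13.4% and 10.6% of all genes. Their summed level was 80.1 to 87.5 CPM in WT and 77.7 to 194 CPM in Eed KO crypts, and these ranges overlapped. Their part in the results for the members was not tested.

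4 of the 6 Dlx factors rose, and all 6 lie in pairs of neighbouring genes. Dlx factors act in the branchial arches, in bone and in forebrain interneurons. Dlx3 and Dlx4, 15160 bases apart on chromosome 11, were at 2.38 ± 1.38 and 3.02 ± 0.575 CPM in Eed KO crypts. Dlx3 had 0 WT counts (at least 30.5-fold higher, adjusted p = 0.00429) and Dlx4 had 3 (ratio 37.8, interval 12.6 to 186, adjusted p = 0.00236). Dlx5 and Dlx6, 9237 bases apart on chromosome 6, were at 2.11 ± 0.837 and 1.62 ± 0.424 CPM with 0 WT counts each. They were at least 27.7-fold (adjusted p = 0.00885) and at least 20.3-fold higher (adjusted p = 0.00717), while by DESeq2 Dlx5 was not called (adjusted p = 0.137). Within run 440 alone Dlx4 (adjusted p = 0.0621) and Dlx6 (adjusted p = 0.0728) were not called. Dlx1 and Dlx2, 9428 bases apart on chromosome 2, were not tested, with 1 and 3 counts in Eed KO crypts and 0 in WT, both at or under the floor.

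Both Msx factors, Emx2, Vax1 and Vax2 rose, and Emx1 was not tested. Msx1, a target and effector of BMP signalling in limb and face, was at 10.1, 8.60 and 10.6 CPM in Eed KO crypts and had 2 counts in WT crypts (ratio 191, interval 52.4 to 1579, adjusted p = 0.00125). Msx2 was at 2.65, 0.844 and 2.64 CPM with 0 WT counts, at least 27.4-fold higher (adjusted p = 0.00382). Emx2, which acts in the cortex and the urogenital tract, was at 16.4, 11.4 and 11.7 CPM with 0 WT counts, at least 168-fold higher (adjusted p = 0.00107). The ventral eye factors Vax1 (33 counts) and Vax2 (52 counts) had 0 WT counts and were at least 10.2-fold (adjusted p = 0.0138) and 16.0-fold higher (adjusted p = 0.0192). The calls of this last pair depended on the fit. Vax1 was not called without Eed KO crypt 385_1 (adjusted p = 0.0603) or 385_2 (0.0565), and Vax2 not without 385_1 (0.0567), within run 440 alone (0.0883) or by DESeq2 (0.225).

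13 members with a row in both tables did not pass the filter. In 8 of them every Eed KO crypt was above every WT crypt (Lhx5, Lhx6, Nkx2-1, Nkx6-1, Nkx6-2, Gbx2, Evx1 and Evx2), and in 5 the libraries overlapped (Lhx4, Dlx1, Dlx2, Emx1 and Tlx2). Of all 7014 genes in both tables below the filter, 823 (11.7%) had every Eed KO crypt above every WT crypt. Evx2 and Evx1, the even-skipped relatives at the ends of Hox clusters, had 46 and 30 counts in Eed KO crypts and 0 in WT, at least 14.2-fold and 9.23-fold higher. Gbx2, a hindbrain factor, had 9 counts against 0 and Emx1 had 5 against 0.

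**Figure D2:**
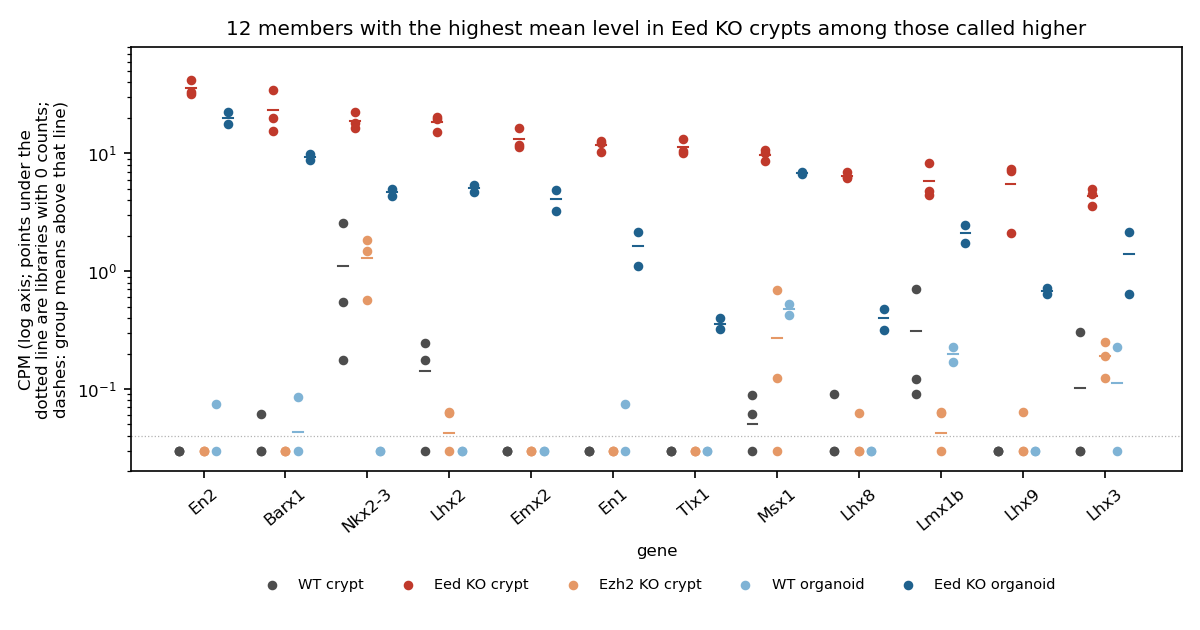
CPM in each library (points) on a log axis for the 12 members with the highest mean in Eed KO crypts among those called higher, coloured by group, with group means as dashes where they lie above the dotted line. Points under the dotted line are libraries with 0 counts. Eed KO crypts lie above Eed KO organoids for each gene drawn, and WT and Ezh2 KO crypts are at or under 0.710 CPM except for Nkx2-3.

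3 members expressed in WT crypts were called lower in Eed KO crypts. Mnx1 (chr5:29473038-29478519), a factor of motor neurons and of the early pancreas, was at 9.50, 9.88 and 12.4 CPM in WT crypts and at 1.56, 1.18 and 5.34 CPM in Eed KO crypts (log2 fold change -2.20 ± 0.34, adjusted p = 0.00216). Lmx1a (chr1:167689239-167848741), known from midbrain dopamine neurons and from the serotonin-making enterochromaffin cells of the gut, was at 6.04, 4.21 and 6.55 CPM in WT and at 0.701, 1.01 and 2.99 CPM in Eed KO crypts (-2.01 ± 0.39, adjusted p = 0.00607). In both genes Eed KO crypt 440_1 was the highest Eed KO library and still below every WT library. Barx2 (chr9:31846097-31913462), expressed in epithelia and muscle, was at 12.6, 14.0 and 30.0 CPM in WT and at 8.49, 8.60 and 9.91 CPM in Eed KO crypts (-0.96 ± 0.26, adjusted p = 0.0270). Its groups did not overlap, but WT crypt 440_1 was more than the other WT libraries together.

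The lower calls depended on the fit. With libraries of the same number as blocks, 18 members were called higher and 1 lower, Mnx1 (adjusted p = 0.0434), while Lmx1a (adjusted p = 0.0655) and Barx2 (adjusted p = 0.0969) were not called. Within run 385, Mnx1 and Lmx1a were called and Barx2 was not (-0.67, adjusted p = 0.0719), and its call was also lost without Eed KO crypt 440_1 (0.0650), WT crypt 440_1 (0.0998) or WT crypt 385_2 (0.0680). Within run 440, with 1 library each of WT and Eed KO, the values were -1.09 for Mnx1, -0.999 for Lmx1a and -1.47 for Barx2, and none was called.

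Enteroendocrine markers are given beside Lmx1a. Of 15, 10 were called lower in Eed KO against WT crypts, among them Chgb, Neurog3 and Tph1, the enzyme of serotonin synthesis, and 1 (Sct) was called higher. Tph1 was at 13.4, 12.8 and 13.1 CPM in WT crypts and at 3.04, 2.11 and 3.87 CPM in Eed KO crypts (-2.13 ± 0.27, adjusted p = 0.000961). The ranges of the summed level of all 15 overlapped, at 1451 to 1912 CPM in WT and 1666 to 2048 CPM in Eed KO crypts. In bulk RNA, fewer cells of a type and less RNA per cell cannot be told apart. The part of enteroendocrine cells in the values of Lmx1a was not tested.

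**Figure D3:**
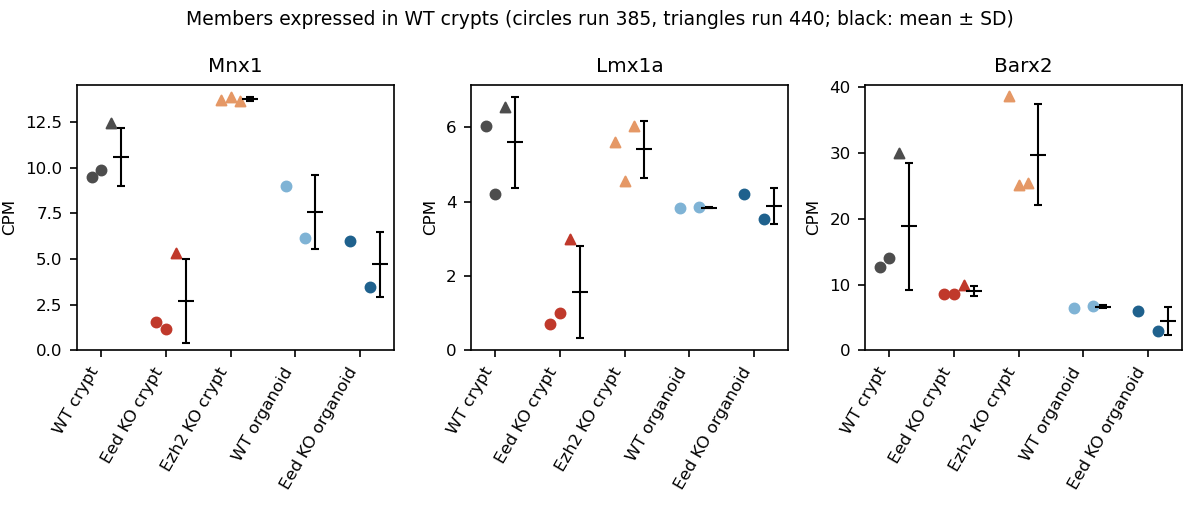
CPM of Mnx1, Lmx1a and Barx2 in each library (circles run 385, triangles run 440) with the mean ± SD of each group in black, on axes from 0. Eed KO crypts lie below WT and Ezh2 KO crypts for each of these genes. None of these genes was called between the organoid groups by the main fit, while Mnx1 was called lower with same-numbered organoids as blocks.

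No member was called in Ezh2 KO crypts. None of the 25 members tested was called in either direction by edgeR, against 0% of all genes called higher and 0.0208% called lower (3 genes). Msx2 was the 1 member with an unadjusted p below 0.05, and none was called by DESeq2. Msx2 had 4, 3 and 1 counts in the Ezh2 KO crypts and 0 in WT (adjusted p = 0.602). 21 of 38 members were at 0 in all Ezh2 KO crypts, En1, En2, Emx2, Barx1 and Tlx1 among them. The members expressed in WT were also expressed in Ezh2 KO crypts. Mnx1 was at 13.7, 13.9 and 13.7 CPM, above every WT library, yet with the run as a term its log2 fold change was -0.40 ± 0.40 (adjusted p = 0.785). Lmx1a was at 5.62, 4.56 and 6.05 CPM, Barx2 at 38.6, 25.2 and 25.5 CPM (0.26 ± 0.30, adjusted p = 0.818). Nkx2-3 was at 1.50, 0.570 and 1.83 CPM and Lhx1 at 0.749, 1.08 and 1.57 CPM. All Ezh2 KO libraries were in run 440, so their distance from WT rests on 1 WT library of that run and on the run term.

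The difference between the knockouts was tested directly. In Eed KO against Ezh2 KO crypts, 21 of 25 members tested were called higher and 2 lower (Mnx1 and Barx2). Over all genes tested, 12.0% were called higher and 8.05% lower, so the lower count is near the share over all genes. The 21 were the ones called higher against WT. Both comparisons share the Eed KO crypts, the fit and the filter. Most of the 21 had almost no counts in WT or Ezh2 KO crypts and passed the filter through Eed KO crypts. The match of the 2 lists and the excess over all genes are thus not independent findings. Log2 differences ran from 1.56 ± 0.42 for Lhx1 (adjusted p = 0.0304) to values set by groups at 0, and for Lhx2, with 775 counts against 2, the ratio was 443 (interval 122 to 3662). Mnx1 differed by -1.80 ± 0.38 (adjusted p = 0.0130) and Barx2 by -1.22 ± 0.33 (adjusted p = 0.0308), and Lmx1a was not called (-1.25 ± 0.43, adjusted p = 0.0756). Lhx1 was not called without any 1 of 5 libraries (adjusted p 0.0565 to 0.350: Eed KO crypts 385_1 and 440_1, Ezh2 KO crypts 440_1 and 440_2, WT crypt 385_2). Vax1 was not called without any 1 Eed KO crypt, and Vax2 not without any 1 Ezh2 KO crypt or by DESeq2 (adjusted p 0.0550 to 0.338). Msx2 was not called without Ezh2 KO crypt 440_3 (adjusted p = 0.0515), and Dlx5 not by DESeq2 (0.225). The lower call of Barx2 was lost in 2 of the alternative fits. Without Eed KO crypt 440_1 the knockouts share no run, and there were 5 higher calls. Without WT crypt 385_2 there was 1 lower call. Within run 440 alone, with 1 Eed KO and 3 Ezh2 KO libraries, 21 were called higher and 2 lower, with the lone Eed KO library assumed to vary like the Ezh2 KO libraries.

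In organoids, which are epithelial cultures, many of the same genes were higher in Eed KO than in WT libraries. Strain and sex also differ between these groups and cannot be told apart from genotype. 17 members passed the filter, and 14 were called higher and 0 lower, against 13.5% and 4.63% of all 12958 genes tested. No member was lower at an unadjusted p under 0.05 or by DESeq2. The median log2 fold change was 5.18, or 4.14 with the 6 members at 0 in WT at their bound. 28 of 41 members were at 0 in both WT organoids and 1, Gbx1, in both Eed KO organoids. 13 members were called higher in both crypts and organoids, which is 61.9% of the crypt calls and 92.9% of the organoid calls. The other 8 crypt calls were below the filter in organoids, so the first share is set by the filter. All 13 crypt calls that were tested in organoids were called higher there, and over all genes 887 of 1543 such genes were (57.5%). Most of these 13 had almost no counts in WT organoids, so they passed the filter there through the group in which they were high. Passing the filter and being called were thus not independent, and the share over all genes is not a like comparison.

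En2 was again the highest, at 22.4 and 17.7 CPM in Eed KO organoids against 1 WT count (ratio 501, interval 89.5 to 19820, adjusted p = 0.000115). Barx1 was at 8.83 and 9.80 CPM against 1 WT count (adjusted p = 0.000396), and Msx1 rose from 0.525 and 0.428 CPM to 6.68 and 6.99 CPM (3.81 ± 0.37, adjusted p = 0.000819). Lhx2 was at 4.69 and 5.38 CPM with 0 WT counts, at least 42.0-fold higher (adjusted p = 0.00114). Nkx2-3 was at 4.38 and 4.98 CPM with 0 WT counts, at least 39.0-fold higher (adjusted p = 0.00125), and Emx2 at 4.93 and 3.21 CPM, at least 34.0-fold higher (adjusted p = 0.0021). For each of these genes both Eed KO libraries lay above both WT libraries. Isl2, Dlx3, Dlx4, Msx2, En1 and Lmx1b were called as well, with Eed KO means of 1.16 to 2.12 CPM.

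The mesenchyme markers were low in these cultures. Their summed level over 16 genes was 5.55 and 11.1 CPM in WT and 14.8 and 11.4 CPM in Eed KO organoids, with Col3a1, Lum, Cnn1 and Grem1 at 0 in all 4. Pdgfra was the one of 3 markers tested that was called higher. The part of such cells in the organoid values of Barx1 and Nkx2-3 was not tested.

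Nkx6-1, a factor of pancreatic beta cells and of ventral neural progenitors, was called in organoids and below the filter in crypts. It was at 0.955 and 2.65 CPM in Eed KO organoids against 0 and 0.0855 CPM in WT (ratio 45.0, interval 7.67 to 1816, adjusted p = 0.0151). In Eed KO crypts it was at 0.312, 0.337 and 0.176 CPM. Its call was lost without WT organoid 385_1 (adjusted p = 0.0721). Lhx1 was at 2.39 and 2.33 CPM against 0.450 and 0.770 CPM (1.95 ± 0.45, adjusted p = 0.0237), a call that was lost without Eed KO organoid 385_1 (adjusted p = 0.0770), Eed KO organoid 385_2 (0.0735) or WT organoid 385_1 (0.171).

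The 3 members that fell in crypts were not called in organoids by the main fit, which has no block. Lmx1a was at 4.22 and 3.53 CPM in Eed KO and 3.83 and 3.85 CPM in WT organoids (0.01 ± 0.29, adjusted p = 0.986). Mnx1 was at 5.97 and 3.45 CPM against 9.01 and 6.16 CPM (-0.69 ± 0.34, adjusted p = 0.229), and Barx2 at 5.97 and 2.89 CPM against 6.46 and 6.76 CPM (-0.58 ± 0.36, adjusted p = 0.341). For Mnx1 and Barx2 the Eed KO organoids lay below the WT ones without passing the test. With organoids of the same number as blocks, Mnx1 was called lower (edgeR adjusted p = 0.0450). Of the 15 enteroendocrine markers, 8 were called higher in Eed KO organoids and 0 lower, the other direction from crypts, and 9 had a lower Eed effect in crypts than in organoids by the test of that difference.

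An interaction term over all 13 libraries tested whether Eed loss acted differently in crypts and organoids. Of 27 members tested, edgeR called none in either direction, against 1.13% of all genes higher and 2.99% lower. 4 had an unadjusted p under 0.05: Lmx1a (-2.02 ± 0.53, adjusted p = 0.0578) and Mnx1 (-1.51 ± 0.53, adjusted p = 0.151) on the lower side, and Msx1 (3.54 ± 1.31, adjusted p = 0.176) and En1 (adjusted p = 0.265) on the higher side. DESeq2 called Lmx1a (adjusted p = 0.0140). Within run 385, Lmx1a (-2.58, adjusted p = 0.0111) and Mnx1 (-2.12, adjusted p = 0.0266) were lower and Msx1 was higher (3.60, adjusted p = 0.0337). Without Eed KO crypt 440_1 or WT crypt 440_1, Lmx1a and Mnx1 were likewise called. A member at 0 in either WT group, such as En1, has no finite estimate of this contrast.

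The level reached under Eed loss was also compared between crypts and organoids, a comparison added after the values were seen. In Eed KO crypts against Eed KO organoids, 7 of 27 members tested were called higher and 3 lower. Over all genes tested, 15.6% were called higher and 12.3% lower, so the lower count is near the share over all genes. Tlx1 differed most, with 469 counts in crypts and 9 in organoids (4.98 ± 0.50, adjusted p = 0.0013). Lhx8 (4.04 ± 0.62, adjusted p = 0.00139), Lhx9 (3.39 ± 0.54, adjusted p = 0.00305) and En1 (2.80 ± 0.50, adjusted p = 0.00713) followed, and Emx2, Lhx2 and Barx1 differed by 1.50 to 1.77. Tlx1 was at 0.398 and 0.321 CPM in Eed KO organoids, Lhx8 at 0.318 and 0.482 CPM and Lhx9 at 0.636 and 0.723 CPM, and none of them passed the filter in the organoid fit. Lower in crypts were Nkx6-1 (-2.61 ± 0.79, adjusted p = 0.0373), Lmx1a (-1.81 ± 0.41, adjusted p = 0.00826) and Mnx1 (-1.38 ± 0.42, adjusted p = 0.0304). Nkx6-1 and Emx2 each lost their call in 4 alternative fits, Mnx1, Lhx2 and Barx1 in 3, and Lmx1a and En1 in 1.

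Dlx3 (0.27 ± 0.70), Msx1 (0.45 ± 0.62) and Msx2 (0.51 ± 0.68) did not pass this test (adjusted p 0.623 to 0.815). The length of induction (6 weeks or 10 days), the strain, the sex and the growth in culture differ between these groups and cannot be told apart. The number of higher calls ran from 4, without Eed KO crypt 385_1, Eed KO organoid 385_1 or Eed KO organoid 385_2, to 15, without Eed KO crypt 440_1 or WT crypt 440_1, and the lower calls from 1, without Eed KO crypt 385_1, Eed KO crypt 385_2 or Eed KO organoid 385_1, to 3.

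**Figure D4:**
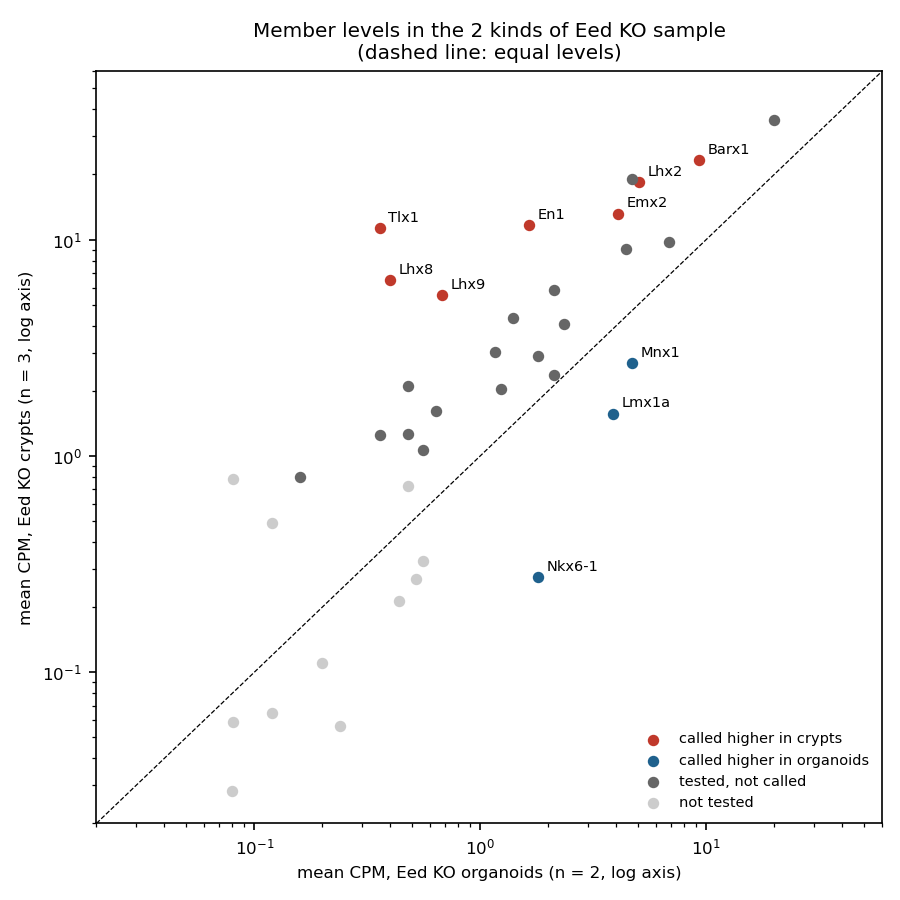
Mean CPM in Eed KO crypts (vertical, n = 3) against Eed KO organoids (horizontal, n = 2) on log axes for the 38 members in both tables, with the dashed line at equal levels and colours for the calls of Eed KO crypts against Eed KO organoids. Of the 7 members called higher in crypts, Tlx1, Lhx8, Lhx9 and En1 lie farthest above the line, and the 3 called lower, Nkx6-1, Lmx1a and Mnx1, lie below it.

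Transcripts next to the raised members were examined as well. Within 200 kb of the 21 members called higher in Eed KO crypts, 74 other genes were tested, and 18 (24.3%) were called higher and 2 lower, against 13.4% and 10.6% of all genes. 7 of the 10 noncoding neighbours and 11 of the 64 protein-coding neighbours (17.2%) were called higher. Of 8 neighbours on the other strand within 10 kb of a member, 7 were called higher, the same 7 noncoding genes. These 7 had 0 to 14 counts in WT crypts, so WT crypts could not have carried them past the filter. Their shares therefore depend on the filter and are no like comparison with all genes. No source used here states whether counting used strand, so reads of overlapping genes on opposite strands (A730090H04Rik with Dlx4, Dlx6os1 with Dlx6, Emx2os with Emx2, Vax2os with Vax2) cannot be told apart. AI606473 lies 261 bases from Lhx8 and had 185 counts in Eed KO crypts and 0 in WT (adjusted p = 0.00236). C130021I20Rik, 682 bases from Lmx1b, had 287 against 14 (4.21, adjusted p = 0.00161), and Gm20467, 1700 bases from Nkx2-3, had 522 against 9 (5.80, adjusted p = 0.000493). None of these 3 overlaps its member.

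Cnpy1, a protein-coding gene 27207 bases from En2, rose from 46 WT counts to 4345, at 110, 184 and 43.5 CPM in Eed KO crypts (6.40, adjusted p = 0.000463), above En2 itself in each library. Lbx1, a homeobox gene of migrating muscle precursors 75745 bases from Tlx1, had 363 Eed KO counts and 1 WT count (adjusted p = 0.000462). Insig1, near En2, and Acaca, near Lhx1, were the neighbours called lower.

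Other genes of the same homeobox classes moved in both directions. Of 31 relatives that are not members, 12 were tested in crypts. In Eed KO 5 rose (Nkx2-2, Hhex, Lbx1, Msx3 and Pdx1) and 3 fell (Nkx1-2, Cdx1 and Cdx2), against 13.4% and 10.6% of all genes. The median log2 fold change of the 12 was 1.44, against -0.04 over all genes. Msx3 had 0 counts in WT crypts and Lbx1 had 1, so WT crypts could not have carried either past the filter. The share called higher is thus no like comparison with all genes. Cdx2, which sets intestinal identity, was at 218, 182 and 189 CPM in WT crypts and at 33.7, 31.6 and 111 CPM in Eed KO crypts (-2.005 ± 0.34, adjusted p = 0.00365). Pdx1, a factor of duodenum and pancreas, rose by 2.26 ± 0.39 (adjusted p = 0.00361). In organoids 8 were tested, with 4 higher (Isl1, Hhex, Hmx2 and Hmx3) and 1 lower (Cdx1), against 13.5% and 4.63% of all genes.

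Of 25 cofactors, 21 were tested in crypts, and 9 were called higher, against 13.4% of all genes. The median log2 fold change of the 21 was 0.19, against -0.04 over all genes. The TALE partners Meis1 (2.68 ± 0.68, adjusted p = 0.0211), Meis2 (3.85 ± 0.73, adjusted p = 0.00575), Meis3 and Pknox2 rose, as did the LIM-only factor Lmo2 (2.74 ± 0.31, adjusted p = 0.000548), Ssbp4 and the Groucho genes Tle1, Tle3 and Tle6. Another Groucho gene, Tle4, fell (-1.43, adjusted p = 0.00397). Ldb1, the LIM-binding partner, was not called. In organoids 6 of 21 were called higher, Lmo2 and Meis1 to Meis3 among them, and 0 lower, against 13.5% and 4.63% of all genes. Lmo2 and Meis1 were at 0 in both WT organoids, which could not have carried them past the filter. The organoid share is thus no like comparison with all genes.

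Among 31 genes known as targets of members in other tissues, 13 were tested in crypts and 2 rose, a share near the 13.4% of all genes. They were Runx2 (2.69 ± 0.32, adjusted p = 0.000666), a bone factor linked to Dlx, and Slit2 (2.47 ± 0.24, adjusted p = 0.000311), an axon guidance ligand. In organoids 5 of 10 rose, against 13.5% of all genes, Runx2, Slit2, Gad2, Th and Sfrp1. Runx2 and Sfrp1 were at 0 in both WT organoids, and Th was at 0 in WT organoid 385_1. WT organoids could not have carried Runx2 and Sfrp1 past the filter, so this share is no like comparison with all genes. The lung and thyroid targets of Nkx2-1 (Sftpa1, Sftpb, Sftpc, Scgb1a1, Tg and Tshr) were not tested in either.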

How the data were processed

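RNA was sequenced from 9 crypt and 4 organoid libraries in runs 385 and 440 with a strand-specific mRNA kit, per the labels' protocols. The values are raw counts of reads per gene that the authors deposited in a table for each run. The submitters' processing notes name TopHat2 2.0.12, Bowtie 0.12.9, HTSeq, DESeq2 and GRCm38, and do not say whether counting used strand. The tables held 23969 and 22634 genes and shared 21420 identifiers, and joining them left out at most 0.196% of a library's counts.

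Counts were tested with edgeR 4.0.16 in R 4.3.3 (TMM, robust quasi-likelihood F test, Benjamini-Hochberg adjustment over all genes, threshold 0.05) after filterByExpr with a minimum count of 10 and a minimum total of 15. The 9 crypts were fitted with group and run (14406 genes), the 4 organoids with group (12958 genes), and all 13 libraries for the interaction and for Eed KO crypts against Eed KO organoids (14761 genes), the last added after seeing the data. CPM used TMM factors over all 13 libraries. The fits were tested on simulated data. Depth was 11421666 to 18300644 counts.

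Members were taken by name, and members, lists and tests were chosen with earlier results of these data known. Every member is accounted for, and values in each library are given for the members called with the highest mean CPM in Eed KO crypts (at least 12), for those called lower in any comparison and for those with a mean of at least 1 CPM in a WT group. Genes of other lists named with values were chosen after their values were seen. Deviations of same-numbered WT and Eed KO crypts had correlations of 0.166, 0.360 and 0.329 over both runs, which include the run, and 0.145 within run 385. The labels do not state that numbers pair libraries, and with so few libraries these correlations cannot show it. The fit with same-numbered crypts as blocks is thus an alternative, given where it changed a call. Same-numbered organoids had a correlation of 0.259. The main fits have no block, in crypts or in organoids. Alternatives were DESeq2 1.42.0, its size factors, no filter, each run alone, the replicate block and leaving out each library. Tlx3 was not analysed here. The result for 1 gene of the cofactor list is not reported here.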

Additional observations from a re-analysis of the deposited data

How the results depend on the processing

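No fold change called in the reported fits reversed its direction under any alternative run. In Eed KO against WT crypts, DESeq2 called 22 members higher and 3 lower, and no low-count filter gave 25 and 3. The replicate block left 1 lower call, run 440 alone 0 and run 385 alone 2. Leaving out 1 library gave 19 to 24 higher and 2 to 3 lower calls. For Ezh2 KO against WT crypts every alternative gave 0, leave-one-out from 0 to 0. For Eed KO against Ezh2 KO crypts, leave-one-out gave 5 to 24 higher and 1 to 2 lower calls. In organoids, no low-count filter gave 25 higher calls, since more members were tested, DESeq2 gave 12 and leave-one-out 12 to 14 higher and 0 to 0 lower. The 2 organoid pairs, like the crypt pairs, share only a number (correlation of deviations 0.259 in organoids). In organoids the replicate block called 1 member lower, Mnx1 (-0.70, edgeR adjusted p = 0.0450). The block changed no call other than those given here and beside Lhx1, Lmx1a and Barx2. Vax1 and Vax2 were not tested in the crypt block fit. For the interaction, DESeq2 called 1 member lower, run 385 alone 1 higher and 2 lower, and leave-one-out 0 to 0 higher and 0 to 2 lower. For Eed KO crypts against Eed KO organoids, run 385 alone called 15 higher, and leave-one-out gave 4 to 15 higher and 1 to 3 lower. Where no cause is named, the cause was not tested. By DESeq2, Lhx1 (adjusted p = 0.0941) and Dlx4 (0.0505) lost their organoid calls. Within run 385 alone Hlx was called higher in Eed KO crypts (2.87, adjusted p = 0.0377), and within run 440 alone its value was -0.019 (adjusted p = 0.992). For members under the filter, depth limits what can be said: a group at 0 is only known to lie under the floor of 3 counts.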

Other observations

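Of 64 protein-coding neighbours of raised members, 11 (17.2%) were called higher in Eed KO crypts by edgeR, near the 13.4% of all genes. Some of these are given here, with smaller changes than Cnpy1 and Lbx1. AI118078, 100327 bases from Isl2, had 174 counts in WT and 1049 in Eed KO crypts (log2 fold change 2.36, adjusted p = 0.00358). Mvb12b, 89442 bases from Lmx1b, had 201 and 810 counts (1.84, adjusted p = 0.000676), and Ptpdc1, 37425 bases from Barx1, had 70 and 271 (1.82, adjusted p = 0.0025). Atp6v1b1, 4713 bases from Vax2, had 2 and 67 counts (adjusted p = 0.0104). Of 8 partner transcripts named for members, 2 were tested in crypts, and both rose (Dlx6os1 and Emx2os). Both had 0 counts in WT crypts, so they passed the filter through the group in which they were high. None of the 4 endothelial and none of the 4 enteric neuron or glia markers tested was called in Eed KO against WT crypts.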
